A study of Homo sapiens with 2 samples.

Results

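The proteasome is the multi-subunit protease that degrades ubiquitin-tagged proteins, and its genes were compared between 1 array of stretched and 1 array of non-stretched Calu-3 cells. Members were all probe sets assigned to a single gene whose symbol starts with PSMA, PSMB, PSMC, PSMD, PSME, PSMF or PSMG followed by a digit. This gave 42 genes whose symbol ends after the digits, covered by 81 probe sets, out of 19775 named genes on the array. A further 8 symbols match the same start but carry letters after the digits (antisense and divergent RNAs and partner proteins); they are not proteasome subunits and are described apart. Of the 42 genes, 41 were measured, meaning that the signal exceeded the median of all non-control probe sets (28.7 and 28.4, the floor) in at least 1 array. The exception was PSMA8, a testis-type core subunit, with signals of 4.26 and 4.19. PSMA6 and PSME2 are each covered only by probe sets that list 2 genes and have no value here, and PSMB11, PSMC5, PSMD7 and PSMD13 were not analysed here.

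Calu-3 cells derive from a human lung adenocarcinoma and serve as a model of airway epithelium. Both cultures were Calu-3, for which the labels name no added gene or drug, grown on flexible plates coated with type I collagen to about 80% confluence in serum-supplemented medium (10%). One was cycled from 0.7% to 20% stretch with 2 s on followed by 2 s off; both are labelled with 18 h. Each group was 1 culture on 1 array, so there is no replicate, no SD between cultures and no test, and every difference compares these 2 arrays.

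The arrays matched the epithelial label, with all 8 epithelial markers above the floor at signals from 2093 to 10323 without stretch and from 767 to 12028 with it. Of these, ELF3 (2934 to 809.9), MUC1 (2093 to 767.4) and CFTR (5924 to 2199) were lower by over 2-fold. The pan-leukocyte gene PTPRC lay below the floor in both arrays (21.2 and 23.9). Of 5 fibroblast markers, COL1A1 exceeded it in both (126.0 and 105.5) and COL1A2 only without stretch (28.8 and 14.3), while COL3A1, PDGFRB and THY1 were below it; their summed signal was 198.2 and 159.6. Of 3 endothelial markers, PECAM1 exceeded it in both (57.7 and 51.3) and CDH5 and VWF in neither, with a sum of 62.7 and 64.0. Leukocytes matter here because they carry immunoproteasomes at rest. Of the 5 leukocyte markers on the array 4 exceeded the floor in at least 1 array, 3 of them higher in the stretched array, and their summed signal with PTPRC went from 1437 to 1950. Most of that sum was lysozyme, LYZ (1220 and 1462), which airway gland cells also make, and CORO1A went from 90.8 to 378.2. CD3E exceeded the floor with stretch only (25.8 and 30.3), and CD14 was lower (78.6 to 55.1). What part leukocytes had in the values below was not tested.

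The core particle is a barrel of outer alpha rings, which gate the entrance, and inner beta rings, which hold the proteolytic sites. A regulatory cap, made of ATPases (PSMC) that unfold substrates and non-ATPases (PSMD) that bind and strip ubiquitin, feeds the barrel, and dedicated chaperones assist assembly. Interferons induce 3 replacement catalytic subunits, PSMB8, PSMB9 and PSMB10, and the PSME1 and PSME2 activator, which together favour peptides suited to presentation on major histocompatibility complex class I.

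The proteasome genes divided by direction between the arrays. The 4 measured immunoproteasome genes were all lower in the stretched array, and of the other 37 measured genes 35 were higher and 2 were lower, mostly by small amounts. Over the 41 measured genes the median log2 difference (stretched minus non-stretched) was 0.23, or 1.17-fold, and without the immunoproteasome it was 0.30, against 0.01 over all 13453 measured genes on the array. In total 35 of 41 lay above 0, where 50.5% of all measured genes did. No gene was higher by 2-fold or more, where 7.78% of all measured genes were, and 2 were lower by that much, where 7.49% were. At 1.5-fold, 7 were higher against 17.9% of all genes, and 2 were lower against 16.7%. The shares past either fold were thus near or under those of all measured genes, and what differed was the number of small positive differences. Among the 3768 genes with a mean signal of at least 1000, 4.09% were higher and 2.92% lower by 2-fold, and 13.5% and 9.90% by 1.5-fold. Against these, the 7 genes higher by 1.5-fold and the 2 lower by 2-fold were above the share, on few genes. The counts higher by 2-fold and lower by 1.5-fold were under it. In RNA from a whole culture, a change in the number of cells of one kind and a change in RNA per cell cannot be told apart.

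Most proteasome genes were among the brightest on the array, with 38 of 41 at a mean signal of at least 1000 and a median at the 93.8th percentile of measured genes. The 3768 genes that bright had a median difference of 0.04 and 54.3% above 0, where the proteasome genes had a median of 0.23 and 35 of 41 above 0. These bright genes were not matched to the proteasome genes in signal, and what part brightness had in the difference was not tested. The SD of a single probe set's log2 difference, estimated from pairs of probe sets of one gene, was 0.36 over 5818 genes and 0.15 over the 830 genes with both probe sets above 1000. It covers probe noise and transcript forms, not variation between cultures. Past 2 of the smaller SDs (0.30), 18 of the 41 genes were higher, against 30.8% of all measured genes and 29.6% of the bright ones, and 2 were lower, against 29.4% and 21.8%. The distance from 0 depends on scaling: centring the arrays on their 75th percentiles lowers every difference by 0.11, those of the other genes included. By median, the proteasome genes lay 0.18 above the bright genes with or without it. It left 31 of 41 above 0 and turned PSMA1, PSMB4, PSMF1 and PSMG2 to below 0. With that centring 4 were higher and 2 lower by 1.5-fold or more. Quantile normalization and removal of a loess trend each turned PSMF1 alone and left 6 higher and 2 lower by that much. With either, the proteasome genes lay 0.22 above the bright genes by median.

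**Figure D1:**
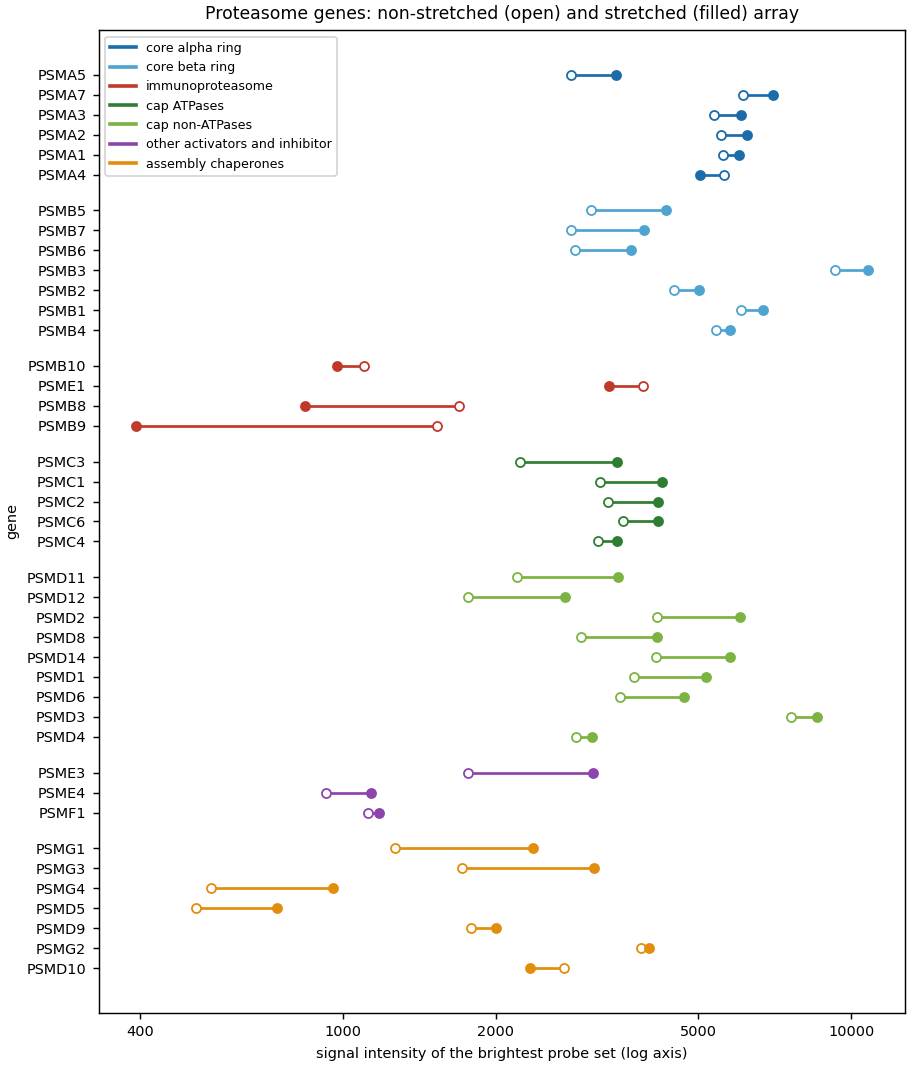
Signal intensity of the brightest probe set of each of the 41 measured proteasome genes on a log axis, with the non-stretched array as open and the stretched array as filled points, coloured by subgroup. In the immunoproteasome rows every filled point lies to the left of its open point, and in most other rows it lies to the right.

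**Figure D2:**
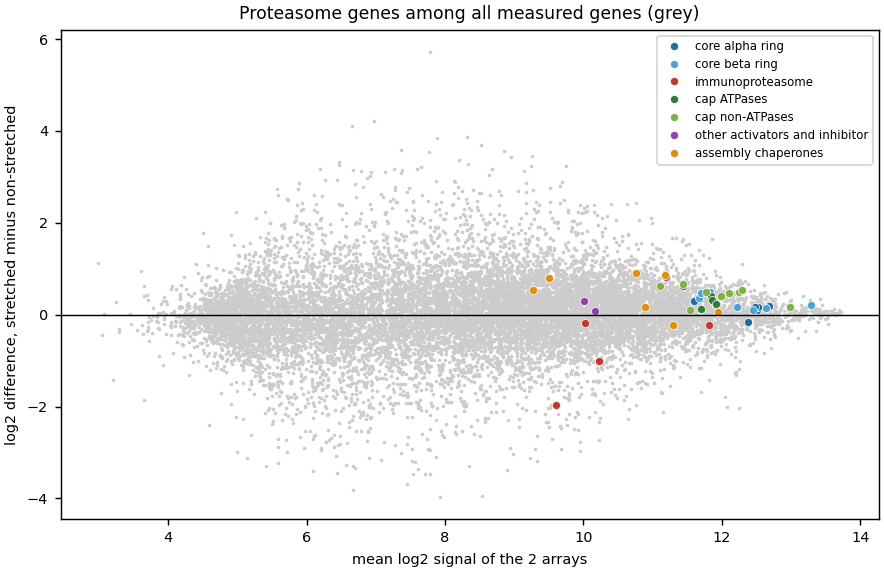
Log2 difference (stretched minus non-stretched) against the mean log2 signal of the 2 arrays, with all 13453 measured genes in grey and the proteasome genes coloured by subgroup. The core and cap genes sit at the bright end a little above 0, and PSMB8 and PSMB9 sit well below it at intermediate signal.

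The immunoproteasome genes were lower in unequal measure. PSMB9, the interferon-induced subunit that replaces PSMB6, had a signal of 1536 without stretch and 391.96 with it, 3.92-fold lower (log2 difference -1.97). Its difference lay at the 1.49th percentile of all measured genes. PSMB8, which replaces PSMB5 and carries the chymotrypsin-like site, went from 1697 to 842.5, 2.01-fold lower (-1.01); its only probe set ends in _s_at and may bind related transcripts. PSMB10, which replaces PSMB7, was nearly level at 1101 and 974.7 (-0.18). PSME1, a subunit of the ring that opens the core gate without ubiquitin, was likewise close in both arrays at 3888 and 3340 (-0.22). The differences of PSMB8 and PSMB9 exceeded 2 of the larger probe-set SDs (0.71), and those of PSMB10 and PSME1 did not exceed 1, though they lay between 1 and 2 of the smaller SD for bright genes. Each of these 4 genes had a single probe set, so none has a second reading on the array.

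By the brightest probe set, the 3 constitutive catalytic subunits that the immune forms displace were at the top of the beta ring. This order was lost with the measured probe sets of a gene averaged, where the structural subunit PSMB2 was at 0.56, and once the _x_at and _s_at probe sets, which may bind related transcripts, were dropped, where it was at 1.21 in a dim probe set. PSMB5, the constitutive chymotrypsin-like subunit, was 1.40-fold higher (3084 to 4330, log2 difference 0.49). PSMB7, with the trypsin-like site, was 1.39-fold higher (2816 to 3917, 0.48), and PSMB6, with the caspase-like site, was 1.28-fold higher (2867 to 3683, 0.36). In all 3 pairs the signs were opposite. Taking the log2 difference of the immune subunit minus that of the constitutive one gave -2.33 for PSMB9 and PSMB6, -1.5 for PSMB8 and PSMB5, and -0.65 for PSMB10 and PSMB7. Probe noise alone gives such a gap an SD of 0.50 by the estimate over all genes and 0.21 by that over bright genes. The PSMB10 gap exceeded 1 but not 2 of the former and 3 of the latter, and PSMB10 itself lay at the limit of the bright genes.

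The promoters of the 4 immunoproteasome genes, with that of the assembly chaperone PSMG4, are shown because 4 of the 5 share a stretch of sequence although their differences did not share a direction. Each window runs from 250 bases before to 50 after a RefSeq start site (GRCh38.p14), 5′ to 3′ on the strand of the gene. Capitals mark matches on either strand to the core of the interferon-stimulated response element (TTTC, then any 2 bases, then TTTC) and to the antioxidant response core TGACNNNGC, which NRF1 and NRF2 also bind. No marked match overlaps another. The windows are PSMB8, the downstream of its 2 windows (chr6:32843998-32844297, minus strand), PSMB9 (chr6:32853942-32854241, plus strand), PSMB10 (chr16:67936801-67937100, minus strand), PSME1 (chr14:24135944-24136243, plus strand) and PSMG4 (chr6:3258697-3258996, plus strand).
PSMB8: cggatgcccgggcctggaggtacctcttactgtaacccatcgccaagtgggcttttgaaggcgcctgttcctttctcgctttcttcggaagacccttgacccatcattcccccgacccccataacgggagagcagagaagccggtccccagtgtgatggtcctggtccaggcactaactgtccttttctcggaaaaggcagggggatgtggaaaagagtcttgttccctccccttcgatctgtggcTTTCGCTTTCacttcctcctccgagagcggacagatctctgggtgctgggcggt
PSMB9: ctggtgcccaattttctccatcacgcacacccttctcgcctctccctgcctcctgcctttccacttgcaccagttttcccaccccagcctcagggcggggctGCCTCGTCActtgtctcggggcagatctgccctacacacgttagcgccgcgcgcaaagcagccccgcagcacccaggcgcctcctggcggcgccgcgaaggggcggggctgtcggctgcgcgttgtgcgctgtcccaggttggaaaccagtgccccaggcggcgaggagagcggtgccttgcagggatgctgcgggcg
PSMB10: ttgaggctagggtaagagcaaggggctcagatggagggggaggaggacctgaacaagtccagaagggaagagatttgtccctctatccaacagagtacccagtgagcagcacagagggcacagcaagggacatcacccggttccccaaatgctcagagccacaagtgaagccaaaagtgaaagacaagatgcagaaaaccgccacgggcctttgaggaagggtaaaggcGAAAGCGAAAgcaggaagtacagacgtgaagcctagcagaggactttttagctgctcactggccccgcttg
PSME1: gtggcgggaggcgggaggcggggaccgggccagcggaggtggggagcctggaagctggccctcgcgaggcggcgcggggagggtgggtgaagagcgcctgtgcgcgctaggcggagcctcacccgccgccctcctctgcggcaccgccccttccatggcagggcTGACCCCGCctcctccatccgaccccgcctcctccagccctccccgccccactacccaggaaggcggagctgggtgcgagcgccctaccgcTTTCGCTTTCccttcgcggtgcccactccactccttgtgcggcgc
PSMG4: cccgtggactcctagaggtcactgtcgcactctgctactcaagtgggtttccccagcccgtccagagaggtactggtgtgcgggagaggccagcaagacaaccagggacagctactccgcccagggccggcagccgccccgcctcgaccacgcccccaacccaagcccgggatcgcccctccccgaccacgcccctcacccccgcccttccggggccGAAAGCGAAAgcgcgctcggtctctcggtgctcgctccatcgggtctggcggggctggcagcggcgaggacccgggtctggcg

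Of the 42 proteasome genes, 36 had a promoter window. The response-element core occurred in 3 of 4 immunoproteasome windows (PSMB8, PSMB10 and PSME1) and in 3 of the other 32 genes (PSMA4, PSMB4 and PSMG4), against 4.38% of the 27305 genes with a window. In PSMB8, PSME1, PSMB10 and PSMG4 the match was the same 10 bases, TTTCGCTTTC or their reverse complement, which 34 genes (0.125%) hold. This exact string was singled out after the sequences were seen. Among the 28 of those 34 genes that were measured, the differences ran from -1.52 (PSMB8-AS1, whose window overlaps that of PSMB8) to 1.10 (GRWD1), with a median of -0.17. Lower by 2-fold or more were 5 of the 28 (17.9%), PSMB8 and PSMB8-AS1 among them, and 2 were higher by as much (7.14%). The shares over all measured genes with a window were 7.27% and 7.64%. PSMG4, with the same 10 bases, was 1.74-fold higher in the stretched array. The window of PSMB9, whose difference was the most negative of the proteasome genes, held only an antioxidant response core. TAP1 (-0.65), which starts 488 bases from PSMB9 on the opposite strand, is among the genes that hold the 10 bases. These matches are a description of the letters and not evidence of binding.

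The antioxidant response core occurred in 13 of 36 proteasome genes against 16.1% of all genes with a window. The 13 included 4 of 6 assembly chaperones with a window (PSMD5, PSMD9, PSMG1 and PSMG2), whose differences ran from 0.06 to 0.90. Of 430 measured genes with the response-element core, the share lower by 2-fold or more was 14.4% and the share higher by as much 4.65%, against 7.27% and 7.64% of all measured genes with a window. For the antioxidant response core both shares were 6.49%.

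Start sites of 6 measured proteasome genes lie within 1000 bases of a measured gene on the opposite strand, and these pairs did not share one pattern. PSMB9 and TAP1, which encodes a subunit of the peptide transporter into the endoplasmic reticulum, start 488 bases apart and point away from each other. TAP1 was 1.57-fold lower (1013 to 643.9), in the same direction as PSMB9. PSMB8 and its antisense RNA PSMB8-AS1 start 39 bases apart, and PSMB8-AS1 was 2.87-fold lower (126.6 to 44.2), with -0.47 in its dimmer probe set. PSMA2 lay 202 bases from the mitochondrial ribosomal gene MRPL32, which was 1.71-fold higher, and PSMG2 lay 265 bases from the centrosomal gene CEP76, which was 2.24-fold higher while PSMG2 itself was at 0.06. In the other 2 pairs the signs differed: PSME4 (0.30) beside ACYP2 (-1.01) and PSMD10 (-0.22) beside ATG4A (0.61). Signs were shared in 4 of the 6 pairs, among them PSMG2 and CEP76, where PSMG2 was at -0.05 when centred on the 75th percentile. The same count over other close gene pairs on the array was not made.

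In the core rings the differences were small and nearly all positive. Of 13 measured core genes 12 were higher (10 when centred on the 75th percentile), none reached 1.5-fold, and the median log2 difference was 0.17, from non-stretched signals between 2809 and 9276. In the alpha ring (6 genes, median 0.17) PSMA5 was highest at 1.23-fold (2809 to 3447, 0.30) and PSMA4 was the only core gene that was lower (5610 to 5048, -0.15). PSMA1, PSMA2, PSMA3 and PSMA7 lay between 0.11 and 0.20. In the beta ring (7 genes, median 0.22) the structural subunits PSMB1, PSMB2, PSMB3 and PSMB4 lay between 0.10 and 0.22, below the 3 catalytic ones. PSMB3 was the brightest proteasome gene, at 9276 and 10780.

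The cap genes were all higher, under each of the 3 other scalings as well. Centred on the 75th percentile, however, PSMD4 (0.0006) and PSMC4 (0.02) were practically level. Of 14 measured cap genes 3 were higher by 1.5-fold or more, and the median log2 difference was 0.44 (1.36-fold), from non-stretched signals between 1764 and 7619. The ranges of cap (0.11 to 0.66) and core (-0.15 to 0.49) overlapped. Among the 5 ATPases (median 0.33), which form the unfolding ring of the base, PSMC3 was highest at 1.55-fold (2235 to 3470) and PSMC4 lowest at 1.09-fold (3178 to 3469). PSMC1, PSMC2 and PSMC6 were at 0.40, 0.33 and 0.23. Among the 9 non-ATPases (median 0.49), the lid scaffold subunits PSMD11 and PSMD12 were 1.58-fold (2203 to 3481) and 1.55-fold (1764 to 2733) higher. PSMD14, the enzyme that removes ubiquitin chains from substrates, was 1.40-fold higher (4126 to 5786). The large base subunits PSMD2 and PSMD1, docking sites for ubiquitin-bearing cargo, were 1.46-fold (4155 to 6053) and 1.39-fold (3735 to 5189) higher. PSMD8 and PSMD6, both of the lid, were at 0.49 and 0.41. The least different were PSMD3 of the lid (7619 to 8551, 0.17) and the ubiquitin receptor PSMD4 (2873 to 3097, 0.11).

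**Figure D3:**
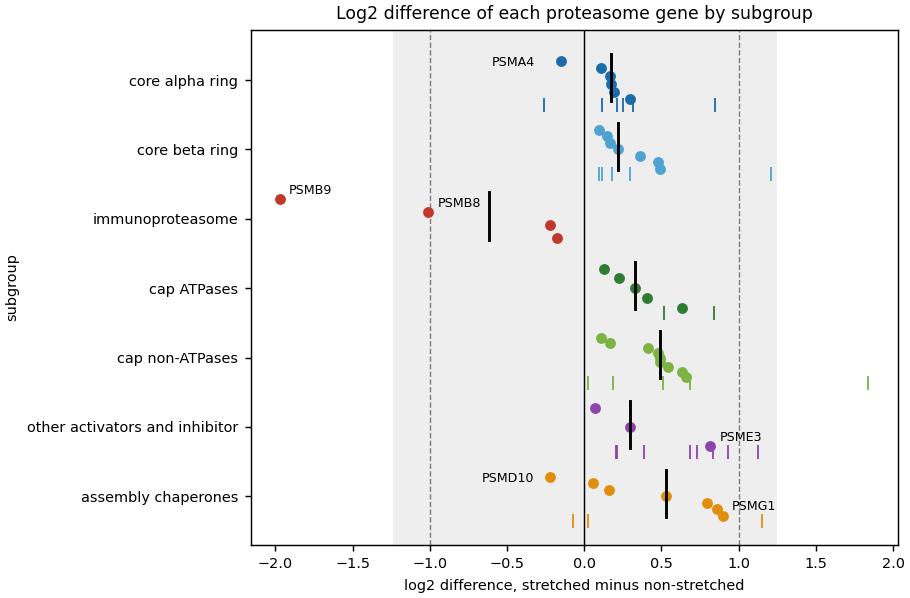
Log2 difference (stretched minus non-stretched) by subgroup, with each gene's brightest probe set as a point, other measured probe sets as ticks, and subgroup medians as black bars; dashed lines mark 2-fold and the grey band holds the central 90% of all measured genes. Subgroup medians run from -0.61 for the immunoproteasome to 0.53 for the assembly chaperones.

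By the brightest probe set, PSMG1 and PSMG3 had the largest positive differences of the proteasome genes, and the assembly chaperones the highest subgroup median. With probe sets averaged PSMD11 was highest at 1.25 and PSMG4 was at 0.41; with the _x_at and _s_at probe sets dropped, the chaperone median (0.29) lay below that of the non-ATPases (0.49). Of 7 measured chaperones, 6 were higher, 3 of them by 1.5-fold or more, and the median was 0.53. PSMG1, which with PSMG2 guides alpha-ring assembly, was 1.87-fold higher (1269 to 2366, 0.90). PSMG3 and PSMG4, which act as a pair on the same ring, were 1.81-fold (1719 to 3118, 0.86) and 1.74-fold (550.3 to 955.4, 0.80) higher. PSMG2 did not follow its partner PSMG1, at 3853 and 4005 (0.06). A dim second PSMG4 probe set exceeded the floor in the stretched array only. Of the chaperones of the cap base, PSMD5 was 1.45-fold higher (514.8 to 744.5), PSMD9 1.12-fold higher (1788 to 1998) and PSMD10, also known as gankyrin, was lower (2720 to 2337, -0.22). The 4 PSMG genes alone had a median of 0.83.

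Of the remaining activators and the inhibitor, PSME3 stood highest. PSME3 forms a nuclear activator ring related to the interferon-induced one but not itself part of the immunoproteasome. It was 1.76-fold higher (1762 to 3105, 0.82), and all 4 of its probe sets lay between 0.68 and 1.13. Each of them ends in _x_at or _s_at and may bind related transcripts, so PSME3 has no value once such probe sets are dropped. Its relative PSME1 was at -0.22. PSME4, a large activator of another family, was 1.23-fold higher (927.7 to 1139), and the inhibitor PSMF1 was at 1122 and 1179 (0.07) in its brightest probe set. Its 3 dimmer ones gave 0.21, 0.39 and 0.73, for an average of 0.35.

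Probe sets of a gene agreed in sign more than in size. Of the 18 proteasome genes with 2 or more probe sets exceeding the floor on each array, 17 had all of them on one side of 0, the exception being PSMA3 (0.17 in its brightest, -0.26 in a probe set at 36.9 and 30.9, near the floor). The dimmest probe set gave a higher difference than the brightest in 15 of 18 genes (83.3%), against 64.8% of 2288 bright genes on the array. The median was 0.17 by the brightest and 0.45 by the dimmest, against 0.03 and 0.17 for those bright genes. PSMD11 was 1.84 in a probe set at 218.7 and 782.4, PSMD9 was 1.15 at 85.7 and 190.2, and PSMB2 was 1.21 at 39.9 and 92.5. PSMA2, at 0.17 in its brightest, was 0.85 in a probe set at 734.6 and 1320. Whether bright probe sets approach saturation, or the dimmer ones read other transcript forms, was not tested. With the measured probe sets of each gene averaged, the median over the 41 genes was 0.40 in place of 0.23. Over the genes with a mean signal of at least 1000 it was 0.10 in place of 0.04.

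**Figure D4:**
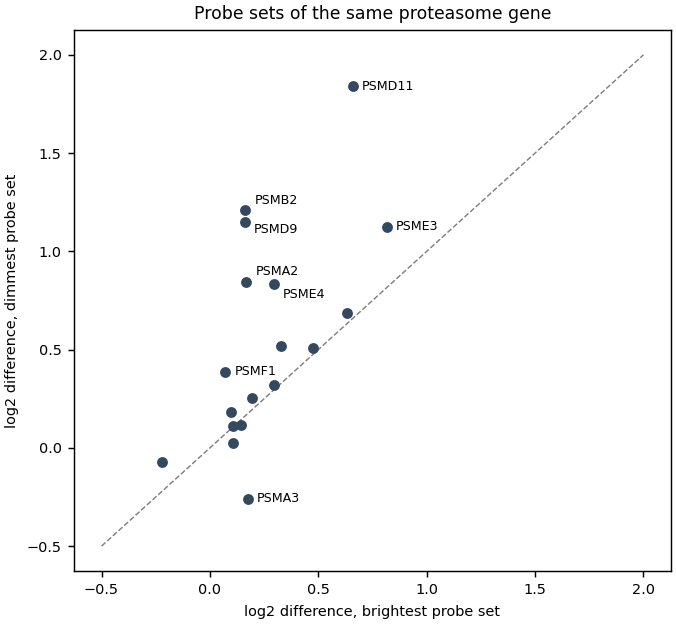
Log2 difference (stretched minus non-stretched) of the dimmest against the brightest probe set for the 18 proteasome genes with 2 or more probe sets exceeding the floor on each array; the dashed line marks equality. Points lie on or above the line for most genes, with PSMD11, PSMB2 and PSMD9 farthest above it and PSMA3 below it.

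The 8 suffixed symbols did not share one direction. PSMB8-AS1 (-1.52, given above) was lower, as was PSMB8. PSMC3IP, a cofactor of meiotic and homologous recombination named for an interaction with PSMC3, was 5.23-fold higher (192.9 to 1009), with 2.39 and 2.65 in its 2 probe sets. PSMG3-AS1, an antisense RNA of the PSMG3 locus with 1 probe set, was 4.73-fold lower (262.8 to 55.6), opposite to PSMG3. PSME3IP1, a protein that binds PSME3, was at 0.08 in its brightest probe set and -0.11 in one of similar signal. PSMA3-AS1 was at -0.11 in its brightest probe set and 0.56 in one near the floor (31.3 to 46.3). PSMD6-AS2 was at 0.62 near the floor (31.1 to 47.8), where PSMD6 was at 0.41. PSMD7-DT and PSMD14-DT lay below the floor in both arrays.

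Of 12 measured genes whose products work on or with the proteasome 9 were higher, 1 of them at least 2-fold (7.78% of all genes), with a median of 0.13. Centred on the 75th percentile 7 were higher with a median of 0.02, with probe sets averaged 10 were (0.23), and with the _x_at and _s_at probe sets dropped all 9 that were left (0.47). UCHL5, a deubiquitinase of the cap, was 2.38-fold higher (808.3 to 1922), with 1.16 to 2.10 over its 3 measured probe sets. ADRM1, the ubiquitin receptor that recruits UCHL5, was 1.54-fold higher (2946 to 4538). UBE3C, a ligase that extends chains on bound substrates, was at 0.50, and ZFAND5, a proteasome-binding activator, was lower (3656 to 2655, -0.46). The core assembly factor POMP was at 0.19. Among 10 measured ubiquitin and delivery genes, 7 were higher, none reached 2-fold in either direction (7.78% and 7.49% of all genes), and the median was 0.17. The median was 0.07 when so centred (5 higher), 0.40 with probe sets averaged (7 higher) and 0.30 without those probe sets (4 of 7 higher). UBQLN4 (0.61), NPLOC4 (0.54) and UFD1 (0.53), which carry or extract ubiquitinated proteins, were higher, UBQLN2 was at -0.57 and ubiquitin gene UBB at -0.01.

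The transcription factor genes NFE2L1 and IRF1 were lower in the stretched array in each of their probe sets. NFE2L1 encodes NRF1, the factor that raises proteasome subunit genes when proteasome activity falls short. It was 2.01-fold lower (6998 to 3475), and all 3 of its probe sets lay between -1.25 and -0.98, while most constitutive subunits were higher. By the brightest probe set all 5 measured genes of its list were below 0 (median -0.30), among them NFE2L2 (-0.41), MAFF (-0.30) and NGLY1, which processes NRF1 (-0.17). Other probe sets of NFE2L2 and MAFG gave 0.33 and 0.32, and with probe sets averaged 4 of 5 were below 0 (median -0.17). In antigen processing all 10 measured genes were below 0 by the brightest probe set, with a median of -0.32. Of these, 1 was lower by 2-fold or more, near the 7.49% of all genes, and 4 by 1.5-fold or more against 16.7%. With probe sets averaged 9 of 10 were below 0 (median -0.29), and 6 of 8 without probe sets that may bind related transcripts (-0.47); with no floor the median was -0.49. IRF1, an interferon-induced activator of PSMB9 and TAP1, was 2.19-fold lower (941.0 to 430.1), with -0.65 in its other probe set. The peptide-trimming enzyme ERAP2 was 1.88-fold lower (1464 to 780.4), and TAP1 and TAPBP were at -0.65 and -0.64. Other probe sets of TAPBP, TAP2, ERAP1 and PDIA3 reached 0.26, 0.64, 0.29 and 0.24. In the remaining measured genes of this list every measured probe set was below 0. NLRC5, an activator of class I genes, barely exceeded the floor without stretch and lay under it with stretch (29.4 and 12.7).

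**Figure D5:**
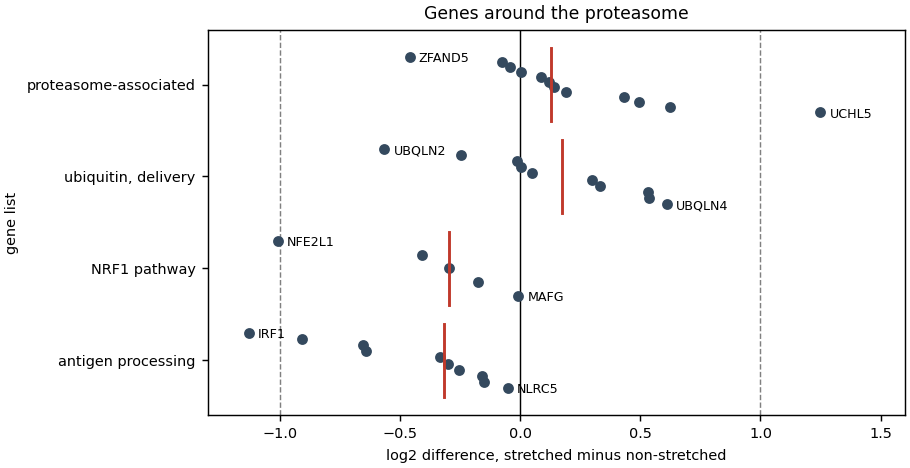
Log2 difference (stretched minus non-stretched) of the measured genes in 4 lists around the proteasome; points are genes, red bars are list medians, dashed lines mark 2-fold, and the lowest and highest gene of each list are named. By the brightest probe set the NRF1 and antigen-processing lists lie entirely below 0, while the other lists spread to both sides.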

How the data were processed

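RNA from 1 stretched and 1 non-stretched Calu-3 culture was measured on Affymetrix expression arrays. Per the labels' protocols, biotin-labelled cRNA was made from 6 µg of total RNA. The authors' deposited table holds linear signal intensity for 54675 probe sets (62 controls); how they were summarised, scaled or called detected is not given in the sources used here. Symbols came from the platform annotation, updated by gene ID to RefSeq (GRCh38.p14); probe sets listing several genes (1801) were not used. With medians differing by -0.02 on the log2 scale, values were used as deposited. Signals below an array's 50th percentile were set to it. A gene took its brightest probe set, and differences are log2 stretched minus non-stretched. With 1 array per group no test was made, and the number of arrays limits precision.

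Promoter letters came from RefSeq windows; 1 planned motif is not reported here. The members, subgroups, lists and motifs were chosen with earlier results of these data known. Described in full were the immunoproteasome genes, the extremes of each subgroup and members past 1.5-fold, with up to 4 genes of each list having the largest difference; others named are members, or were named after their values were seen (POMP, UBB, NLRC5, GRWD1 and the start-site neighbours). Alternatives covered scaling, floor, probe-set choice, subgroup limits and fold. The code was tested on simulated data (Python 3.11.15, pandas 2.3.3, statsmodels 0.14.6).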

Additional observations from a re-analysis of the deposited data

How the results depend on the processing

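Of the single-gene values under the alternatives, 266 stayed within 1 probe-set SD (0.36) of the reported value, 10 moved further, and none of the 2-fold differences turned sign. Many of these values could not move that far, so the count is no measure of stability. The changes of floor left each single-gene value as it was, and centring on the 75th percentile shifts all by 0.11. Averaging cannot change the 22 genes with 1 measured probe set. The limit of 0.36 also exceeds the median difference of 0.23. In every alternative PSMB8 and PSMB9 were lower where they were measured; PSMB8 has no value once probe sets ending in _x_at or _s_at are left out. Centred on the 75th percentile, the medians were 0.064 (alpha ring), 0.11 (beta ring), 0.067 (core), 0.22 (ATPases), 0.38 (non-ATPases), 0.34 (cap), 0.19 (other activators and inhibitor), 0.42 (assembly chaperones), -0.72 (immunoproteasome) and 0.12 (all), a uniform shift by construction. The assembly chaperone median was 0.43 after quantile normalization and 0.43 with the loess trend removed. With probe sets averaged, the medians were 0.36 (beta ring), 0.45 (other activators and inhibitor) and 0.40 (all), and 1 gene, PSMD11, was at least 2-fold higher. Leaving out all probe sets with these endings, 30 genes were left, 2 at least 2-fold higher (PSMB2 and PSMD11) and 1 lower; the medians were 0.42 (beta ring), 0.33 (core), 0.23 (ATPases), 0.51 (other activators and inhibitor), 0.29 (assembly chaperones), -0.22 (immunoproteasome) and 0.33 (all), with fewer genes in each. At 1.5-fold 7 genes were higher in place of 0 at 2-fold. With the suffixed symbols included, 1 was at least 2-fold higher and 4 lower. Counting PSMD5, PSMD9 and PSMD10 as cap gave a median of 0.83 for the assembly chaperones, and the immunoproteasome without PSME1 had a median of -1.01. The other alternatives left subgroup medians within 0.1. No paired analysis was possible because each group is 1 array. Depth has no counterpart here, and 1 array a group limits every value.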
